A study of Oryctolagus cuniculus with 35 samples.

Results

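CD antigens are cell surface proteins that immunologists number and use to tell leukocyte types apart. The genes examined here are the rabbit genes whose symbol is CD followed by a number and, in some, further letters, without CD14 and CD163. Of 53 such symbols in the deposited tables, 9 were listed at 0 in every library and 43 are described, among 23669 genes in all, of which 13452 were above 0 in at least 1 library. By the use for which each is best known in human and mouse, the 43 were set out as 7 T cell genes, 3 NK cell genes, 3 B cell genes, 10 genes of antigen presentation and costimulation, 4 myeloid genes, 4 genes found across leukocytes, 10 genes of stromal or wide expression and 2 genes whose proteins only carry a CD-like symbol. The 9 symbols at 0 were CD3E, CD5, CD22, CD37, CD40, CD99L2, CD248, CD300LF and CD320. Because they include defining T and B cell antigens, a 0 in these tables says only that no read was counted. No gene with the symbol CD8A or CD68 was analysed here.

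The numbering joins proteins of unrelated function. T cells read antigen through a receptor whose signal passes through the chain encoded by CD247, and they need a second signal from pairs such as CD28 with CD80 or CD86. B cells signal through a receptor that includes CD79B, and CD274, also called PD-L1, restrains T cells. In the lung, alveolar macrophages, capillary endothelium and epithelium carry CD antigens of their own, so a lung homogenate reports leukocytes and tissue cells together.

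The RNA libraries were made from lungs of New Zealand rabbits, 7 for each of 5 groups. In 4 groups pneumococcal pneumonia was joined with adverse mechanical ventilation, and at 4 h after inoculation the rabbits received ceftaroline with MSC, ceftaroline alone, MSC alone or NaCl. MSC are human umbilical cord-derived mesenchymal stromal cells, here 3000000 cells per kg into a vein, and ceftaroline is a cephalosporin antibiotic, here 20 mg/kg into a muscle. The fifth group was healthy and was given NaCl, with neither infection nor adverse ventilation named in its labels. In the 4 pneumonia groups autopsy followed at 24 h, or at once on an earlier death, so that survival time can differ within a group. For the healthy group no autopsy time was recorded here. Infection and ventilation came together in all 4 pneumonia groups and cannot be told apart. In bulk lung RNA, fewer cells of a type and less RNA per cell cannot be told apart either.

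Depth was 7567008 to 33209729 reads per library, with a median of 11137017. The 43 genes together took 1.37% of the reads of the median library with ceftaroline plus MSC, 1.34% with ceftaroline, 1.26% with MSC, 1.13% with NaCl and 1.26% in healthy lung. Values below are normalized reads, which are reads per gene divided by a size factor of the library, and they are comparable between libraries of 1 table but not between genes. Tests were made with limma on log2(normalized reads + 1), and a called gene is one whose adjusted p (Benjamini-Hochberg, over all genes tested in that table) was under 0.05. The labels do not say that each library came from a rabbit of its own, so p-values measure the spread between these samples, part of which may be technical. Sample titles end in 2 extra letters in 2 of 7 MSC libraries, 3 of 7 NaCl libraries and 5 of 7 healthy libraries, and in none of the others. The letters are PG in all the MSC and NaCl titles that have them, and PD in 4 and PG in 1 of the healthy ones. The healthy library with PG is healthy replicate 6, which is described below. It is part of each estimate against healthy lung that is given for libraries with the ending. Values given below for libraries with the ending therefore set mostly PD healthy libraries against PG NaCl libraries, and the letters and the groups cannot be told apart there. A further mark, S00, stands in the sample names of 7 of 7 healthy libraries, 1 of 7 NaCl libraries and none of the others. The labels do not explain it, and in every estimate against healthy lung it can hardly be told apart from health.

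Healthy replicate 6 stood apart from the other healthy libraries in lymphocyte genes. It was the lowest of the 7 healthy libraries in 8 of the 9 T and B cell genes above the filter on low values. CD2, an adhesion receptor of T and NK cells, had 3.01 normalized reads there and 57.8 to 120.1 in the other 6 healthy libraries. CD4, the coreceptor for MHC class II, had 18.03 there against 144 to 361, and CD79B had 66.1 against 483 to 802. Lymphocyte genes outside the CD list were low there too, with a sum over the 11 B cell genes in the tables of 1286 normalized reads against 3237 to 14792 and a sum over the 11 T cell genes of 405 against 675 to 1191. The sums of NK cell genes, at 17.0 against 47.1 to 109, and of macrophage genes, at 3739 against 4014 to 6507, were also below the other healthy libraries, and that of fibroblast genes, at 19571 against 13629 to 18271, was above them. CD247 did not follow, with 589 normalized reads in that library, which was the median of the healthy group. The titles of healthy replicates 6 and 7 begin with the letter used in the ceftaroline titles. The 10 genes in which the NaCl and healthy groups did not overlap cannot check their group. Those genes were chosen because every healthy library lay outside the NaCl range. The estimates of T, B and NK cell genes against healthy lung are therefore given with and without replicate 6. Since it was picked for its low lymphocyte genes, leaving it out moves their estimates down by that choice. Calls gained in this way are descriptions only.

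Pneumonia with ventilation and NaCl was compared with healthy lung. The genes CD44, CD53, CD69, CD38, CD244, CD274, CD83 and CD80 were all higher, by 1.36 to 3.65 on the log2 scale. CD300LG and CD36 fell furthest and CD247 fell with them. Over all 14 libraries the other T cell genes and 2 of 3 B cell genes did not pass the test, but without healthy replicate 6 CD40LG and CD79B were called lower as well. That library was singled out for its low values in these same genes, so leaving it out favours lower estimates and is no independent support. Of the 37 genes that could be tested, 20 were called (54.1%), against a background of 60.6% of all 9545 genes tested. Of these, 13 were higher (background 29.7%) and 7 lower (background 30.9%). The share of CD genes called was thus no higher than that of genes at large, and their median size of change, 0.73 on the log2 scale, was close to the 0.72 of all genes tested. In 10 of the 37, the NaCl and healthy groups did not overlap (background 29.9%), 7 of them higher in NaCl (14.7%) and 3 lower (15.2%). In the authors' deposited table, 22 of the 43 genes had an adjusted p under 0.05, against 53.4% of all genes given one there.

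**Figure D1:**
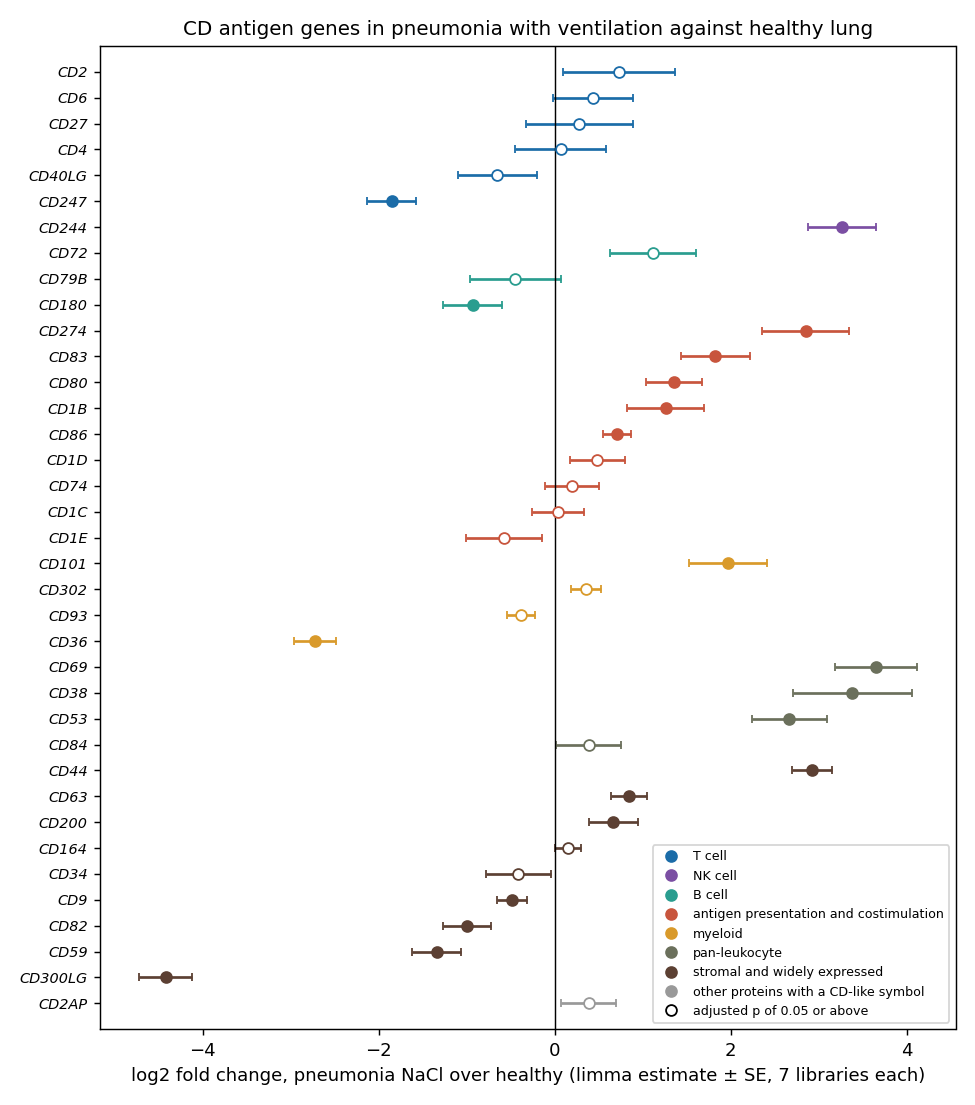
Estimated log2 fold change of the 37 tested CD genes in NaCl pneumonia over healthy lung, with bars of 1 standard error and 7 libraries per group, coloured by use. Filled points passed the test (20 genes) and open points did not, and CD300LG at -4.42 and CD69 at 3.65 mark the ends of the range.

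The plot of fold changes sets the changes out by class. Over all genes tested, 60.6% were called, 29.7% higher and 30.9% lower, and the small classes are to be read beside these shares. Genes of antigen presentation and costimulation lay almost wholly to the right, with 5 of 9 called, all of them higher, and a median log2 fold change of 0.71. Genes found across leukocytes had 3 of 4 called, all higher, with a median of 3.03. Stromal and widely expressed genes were split, with 3 higher and 4 lower of 9. T cell genes had 1 of 6 called and B cell genes 1 of 3, both lower. Without healthy replicate 6, which was picked for its low values in these genes, the counts were 2 of 6 and 2 of 3, all lower, beside 59.4% of all genes tested. No difference between classes was tested.

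CD247 encodes the zeta chain that carries the signal of the T cell receptor and of some NK cell receptors. It had 81.0 normalized reads in the lowest NaCl library, 151 in the median and 448 in the highest, against 514, 589 and 757 in healthy lung. Every NaCl library was below every healthy library. The log2 fold change was -1.85 with a standard error of 0.28 (limma adjusted p = 4.30e-05). It kept its direction in the libraries without the title ending, at -1.36, where it no longer passed the test (limma adjusted p = 0.0652), and it was -2.32 in those with the ending. Without healthy replicate 6 it was -1.86.

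The other T cell genes overlapped between the groups. CD4 had 90.6, 156 and 315 normalized reads in the lowest, median and highest NaCl library, against 18.03, 199 and 361 in healthy lung, with a log2 fold change of 0.07 ± 0.52 (SE). Without healthy replicate 6 that estimate was -0.43. It was also below 0 without NaCl replicate 2, at -0.053, and without NaCl replicate 3, at -0.098, so it had no stable sign. CD2 had 51.1, 78.2 and 229 in NaCl lung against 3.01, 93.5 and 120.1 in healthy lung, with an estimate of 0.73 ± 0.63 that became 0.10 without that library.

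CD6, a scavenger receptor of T cells, had an estimate of 0.44 ± 0.45, and 0.03 without healthy replicate 6. CD27, a costimulatory receptor of the TNF receptor family on T and B cells, had one of 0.28 ± 0.60, and -0.28 without that library. CD40LG, the ligand by which helper T cells activate B cells and macrophages, had 2.83, 12.8 and 22.4 normalized reads in NaCl lung, against 4.01, 23.3 and 35.0 in healthy lung. Its estimate was -0.65 ± 0.45 and it was not called over all 14 libraries (limma adjusted p = 0.228). Without healthy replicate 6 it was -0.97 and was called (limma adjusted p = 0.0402). The median over the 6 T cell genes was 0.18 with that library and -0.35 without it, so no direction can be given for the class as a whole. Of 6 tested T cell genes outside the list, 1 was lower and none higher, and LCK and PDCD1 were listed at 0. The sum of the list ran from 625 to 1685 normalized reads in NaCl lung and from 405 to 1191 in healthy lung.

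**Figure D2:**
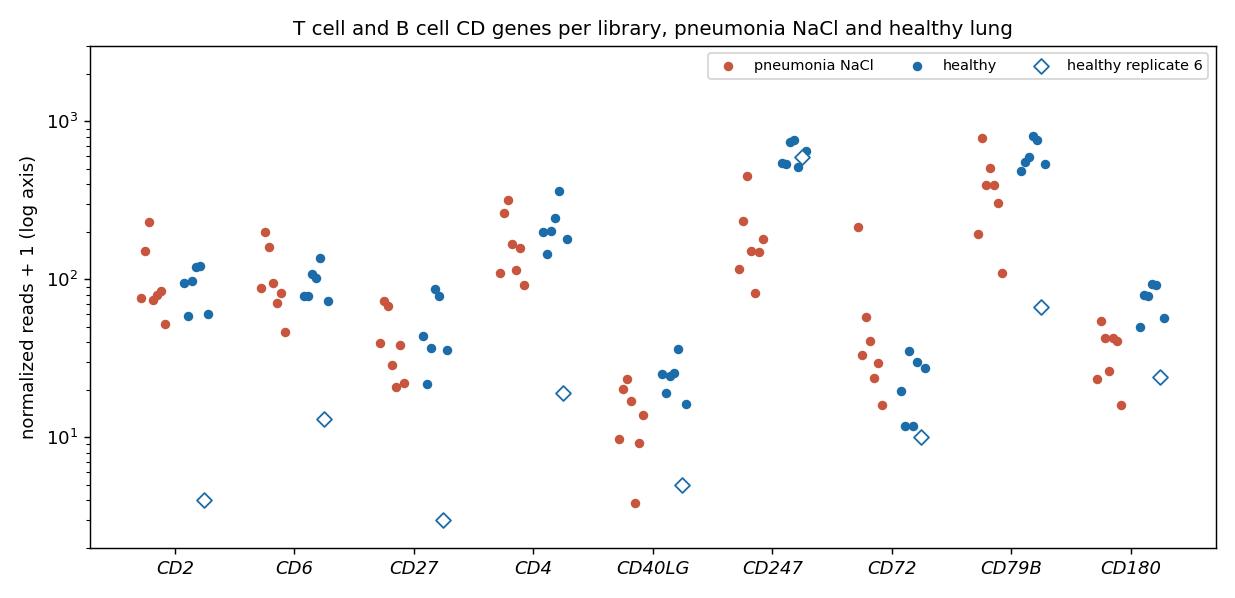
Normalized reads plus 1, on a log axis, of 9 T and B cell CD genes in each of 7 NaCl pneumonia and 7 healthy libraries, with healthy replicate 6 as an open diamond. The diamond is the lowest healthy value in 8 of the 9 genes, and CD247 is the gene in which the groups do not overlap.

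As the plot of lymphocyte genes shows, the healthy group is compact for most of these genes once the open diamond is set aside. Among B cell genes only CD180, a relative of the Toll-like receptors that tunes B cell activation, was called. It had 15.1, 39.7 and 53.6 normalized reads in the lowest, median and highest NaCl library, against 23.0, 77.2 and 92.1 in healthy lung. The groups overlapped, since 2 healthy libraries lay inside the NaCl range. The log2 fold change was -0.93 ± 0.33 (SE), with a limma adjusted p of 0.0243, and the call was lost at 0.0528 without healthy replicate 4, at 0.0512 without healthy replicate 5 and at 0.0517 without NaCl replicate 7. It was also lost in the libraries without the title ending, at -0.97, and in those with it, at -0.99. Without healthy replicate 6 the estimate was -1.16 (limma adjusted p = 0.00288).

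CD79B, a signalling chain of the B cell receptor, had 108, 392 and 788 normalized reads in NaCl lung, against 66.1, 554 and 802 in healthy lung. Its estimate was -0.45 ± 0.52, and without healthy replicate 6 it was -0.90 and was called (limma adjusted p = 0.0427). CD72, an inhibitory receptor of B cells, had 15.1, 31.9 and 212 normalized reads in NaCl lung against 9.02, 18.5 and 34.3 in healthy lung, and its estimate of 1.12 ± 0.49 just missed the threshold (limma adjusted p = 0.0583). It was called on the recovered reads with edgeR, at 1.51 (adjusted p = 0.0255), and with DESeq2, at 1.54 (adjusted p = 0.00735), and had an adjusted p of 0.00912 in the authors' deposited table, while without healthy replicate 6 it was 0.97 and not called (limma adjusted p = 0.114). It was also called without healthy replicate 3 (limma adjusted p = 0.0430), NaCl replicate 5 (0.0450) or NaCl replicate 7 (0.0255). In CD72, NaCl replicate 1 was far above the other NaCl libraries, at 212 normalized reads against at most 56.8, and without it the gene was not called. Of 7 tested B cell genes outside the list, 2 were higher and 1 lower, with FCER2, TNFRSF13B and TNFRSF13C at 0, and the list summed to 4289 to 12772 normalized reads in NaCl lung and 1286 to 14792 in healthy lung.

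Of the NK cell genes only CD244 passed the filter on low values. CD244 is a receptor of the SLAM family on NK cells, some T cells and myeloid cells. It had 137, 315 and 1245 normalized reads in the lowest, median and highest NaCl library, against 28.05, 44.3 and 51.4 in healthy lung. All NaCl libraries were above all healthy ones, with a log2 fold change of 3.27 ± 0.39 (SE) and a limma adjusted p of 4.29e-06. It was 4.05 in the libraries without the title ending, 2.32 in those with it and 3.18 without healthy replicate 6. None of the 3 NK cell genes tested outside the list was called, NKG7 was at 0, and their list summed to 32.5 to 177 normalized reads in NaCl lung and 17.0 to 109 in healthy lung. CD96, a receptor for nectin-family proteins, stayed under the filter with 1 to 5 reads per NaCl library and 5 to 19 per healthy library, and with limma it was called lower only where no filter was used. In the authors' deposited table its log2 fold change was -1.23 with an adjusted p of 0.0156. CD226, its counterpart for the same ligands, had 0 to 17 reads per NaCl library and 3 to 16 per healthy library.

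CD274, the ligand of the inhibitory receptor PD-1, was the antigen presentation gene with the largest change. It had 437, 2473 and 7592 normalized reads in the lowest, median and highest NaCl library, against 206, 265 and 389 in healthy lung. All 7 NaCl libraries were above the healthy range, but they spread widely, with 3 of them well below the median. Those 3 were the NaCl libraries with the title ending. The log2 fold change was 2.85 ± 0.50 (SE) with a limma adjusted p of 0.000144. It was 4.07 among libraries without the title ending and 1.39 among those with it, and passed the test in both. The difference between those values was not tested.

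CD83, a marker of mature dendritic cells, had 591, 1744 and 4239 normalized reads in NaCl lung, against 292, 551 and 638 in healthy lung. Only the lowest NaCl library fell inside the healthy range, and the log2 fold change was 1.83 ± 0.39 (SE, limma adjusted p = 0.000812). Among libraries without the title ending the estimate was 1.77 and did not pass the test (limma adjusted p = 0.0633).

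CD80 and CD86, the ligands that give T cells their second signal through CD28, both rose. CD80 had 297, 470 and 1279 normalized reads in NaCl lung against 168, 199.9 and 314 in healthy lung, a log2 fold change of 1.36 ± 0.32 (SE, limma adjusted p = 0.00179). CD86 had 325, 394 and 473 against 179, 231 and 374, a smaller change of 0.71 ± 0.16 (SE, limma adjusted p = 0.00134). In both genes the NaCl libraries lay higher as a group but met the upper end of the healthy range. Their receptor gene CD28 was close to 0, with at most 6 reads in any NaCl library and 4 in any healthy one.

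The CD1 proteins present lipid antigens to T cells, and their genes are close paralogs that lie in 1 cluster, so reads may be shared among them and their values are uncertain. CD1B was called higher at 1.26 ± 0.43 (SE, limma adjusted p = 0.0198). That call was lost without the title ending, at 1.47 (limma adjusted p = 0.0508), and with it, at 0.61 (limma adjusted p = 0.306), while CD1C, CD1D and CD1E, at 0.04, 0.48 and -0.57, were not called. CD1D was called higher without healthy replicate 7, at 0.71 (limma adjusted p = 0.0269), and without the title ending, at 1.27 (limma adjusted p = 0.0290). CD1A stayed under the filter, with 2 to 25 reads per NaCl library and 0 to 12 per healthy library. CD74, the invariant chain that guides MHC class II to its peptides, had 21036, 47625 and 68978 normalized reads in NaCl lung against 19255, 33932 and 54296 in healthy lung. Its estimate of 0.20 ± 0.30 was smaller than its standard error, and it was -0.44 among libraries with the title ending.

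Among myeloid genes the changes pointed both ways. CD36, a scavenger receptor and fatty acid carrier of macrophages and capillary endothelium, had 404, 558 and 1318 normalized reads in the lowest, median and highest NaCl library, against 3417, 4525 and 5405 in healthy lung. The groups stood far apart, with a log2 fold change of -2.72 ± 0.24 (SE, limma adjusted p = 2.24e-07). CD101, an immunoglobulin superfamily protein of myeloid cells and some T cells, moved the other way.

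CD101 had 31.1, 148 and 300.3 normalized reads in NaCl lung against 10.0, 33.0 and 45.4 in healthy lung. A single NaCl library lay inside the healthy range, and the log2 fold change was 1.97 ± 0.45 (SE, limma adjusted p = 0.00131). Among libraries with the title ending it was 1.237 and did not pass the test (limma adjusted p = 0.0755). CD93, a lectin-like protein of endothelium and myeloid cells, had an estimate of -0.38 ± 0.16 just short of the threshold (limma adjusted p = 0.0512). CD302, a lectin of monocytes and macrophages, had one of 0.36 ± 0.17 (limma adjusted p = 0.0742). Without healthy replicate 6 both were called, CD93 at -0.44 (limma adjusted p = 0.0267) and CD302 at 0.44 (limma adjusted p = 0.0273). CD93 was also called with edgeR (adjusted p = 0.0415) and DESeq2 (adjusted p = 0.0344), and with limma without healthy replicate 4 (adjusted p = 0.0377), NaCl replicate 4 (0.0433) or NaCl replicate 5 (0.0292). CD302 was also called without NaCl replicate 6 (limma adjusted p = 0.0296).

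The genes found across leukocytes included the largest rises. CD69, the early activation antigen that holds lymphocytes in tissue, had 177, 327 and 1326 normalized reads in the lowest, median and highest NaCl library, against 9.02, 34.3 and 51.3 in healthy lung. No NaCl library came near the healthy range, and the log2 fold change was 3.65 ± 0.47 (SE, limma adjusted p = 8.03e-06). CD38, an enzyme of the cell surface that consumes NAD, had 46.5, 488 and 936 normalized reads in NaCl lung against 5.01, 35.4 and 44.9 in healthy lung. Its lowest NaCl library sat just above the highest healthy one on this scale and just below it as TMM-scaled CPM, at 4.88 against 4.97. The log2 fold change was 3.39 ± 0.68 (SE, limma adjusted p = 0.000479).

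CD53, a tetraspanin of nearly all leukocytes, had 2985, 19684 and 26206 normalized reads in NaCl lung against 1271, 1972 and 2271 in healthy lung. The NaCl libraries formed a high set of 4 and a lower set of 3, all above healthy lung, and the log2 fold change was 2.67 ± 0.43 (SE, limma adjusted p = 6.87e-05). The lower 3 were the NaCl libraries with the title ending, which were also the 3 lowest in CD38. The cause of this split was not tested. In the libraries without the title ending CD53 was higher by 3.62 and CD38 by 4.24, and in those with it by 1.42 and 1.81. CD84, a SLAM family receptor whose gene lies near CD244 in the RefSeq gene order, had 90.7, 149.9 and 518 normalized reads in NaCl lung against 94.2, 142 and 215 in healthy lung. Unlike CD244 it was not called, with an estimate of 0.39 ± 0.37 (limma adjusted p = 0.376).

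Neutrophil genes rose in the same comparison. All 4 tested of the neutrophil list (CAMP, LTF, S100A8 and S100A9) were called higher, and the list summed to between 141460 and 1266820 normalized reads in NaCl lung and between 11695 and 91334 in healthy lung, with CSF3R, ITGAM and MMP9 at 0. Of 8 tested macrophage genes 3 were higher and none lower, the list summed to 5095 to 28364 normalized reads in NaCl lung and 3739 to 6507 in healthy lung, and ITGAX was at 0. The part of either cell type in the rise of CD44, CD53, CD69, CD38, CD244 and CD274 was not tested.

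**Figure D3:**
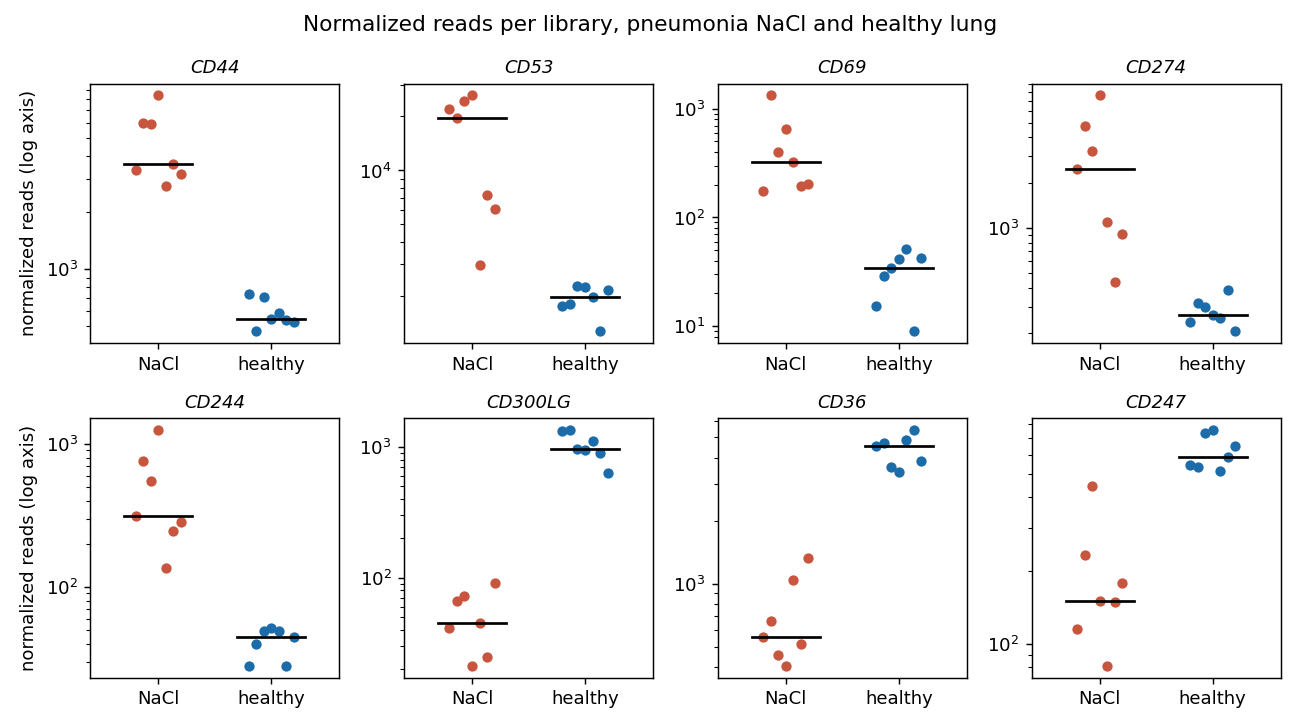
Normalized reads on a log axis in each of 7 NaCl pneumonia libraries (left) and 7 healthy libraries (right) for 8 CD genes in which the groups did not overlap, with the median as a line. CD44, CD53, CD69, CD274 and CD244 were higher in every NaCl library than in any healthy one, and CD300LG, CD36 and CD247 were lower.

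The plot of single libraries shows how clean each separation was, narrowest for CD274 and CD247 and widest for CD300LG. CD44, a hyaluronan receptor by which leukocytes and tissue cells hold to matrix, had 2768, 3627 and 8391 normalized reads in the lowest, median and highest NaCl library, against 468, 542 and 738 in healthy lung. The log2 fold change of 2.93 ± 0.23 (SE, limma adjusted p = 7.51e-08) passed the test, with all NaCl libraries above all healthy ones. It was 3.10 without the title ending and 2.53 with it.

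CD300LG, a protein of capillary and lymph node endothelium that, in mouse, binds the L-selectin of lymphocytes, fell furthest of all tested CD genes. It had 21.1, 45.2 and 91.8 normalized reads in NaCl lung against 633, 973 and 1345 in healthy lung. The log2 fold change was -4.42 ± 0.30 (SE, limma adjusted p = 2.53e-08), and it was -4.71 in the libraries without the title ending and -4.29 in those with it. CD34, a sialomucin of endothelium and blood progenitors, had 176, 383 and 1039 normalized reads in NaCl lung against 269, 649.8 and 808 in healthy lung, with an estimate of -0.41 ± 0.37 (limma adjusted p = 0.353). Its direction depended on the libraries, at -1.06 without the title ending and 0.44 with it.

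Other endothelial genes also moved. Of 7 tested from a list outside the CD genes, 5 were lower and 1 higher, while the list as a whole summed to 10063 to 20813 normalized reads in NaCl lung and 12152 to 18256 in healthy lung, with CLDN5 at 0. Fibroblast genes were lower in 5 of 6, summing to 4998 to 15479 against 13629 to 19571, with PDGFRA and THY1 at 0. Epithelial genes were lower in 3 of 6 and higher in 1, summing to 29991 to 146236 against 159790 to 243510, with FOXJ1, SCGB1A1 and SFTPC at 0. Their part in the falls of CD300LG and CD36 was not tested.

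CD59, which blocks the membrane attack complex of complement, had 105, 141 and 331 normalized reads in NaCl lung against 305, 347 and 721 in healthy lung. Only the highest NaCl library reached the healthy range, and the log2 fold change was -1.34 ± 0.28 (SE, limma adjusted p = 0.000704). It was -2.29 without the title ending and -0.65 with it, and in the second case it did not pass the test (limma adjusted p = 0.0870). Of 4 other complement regulators tested, 1 was higher and 2 lower.

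CD63, CD82 and CD9 are tetraspanins, which organise other proteins in membranes, and CD63 marks lysosomes and secretory granules. CD63 had 18094, 24863 and 39631 normalized reads in NaCl lung against 9456, 13281 and 17426 in healthy lung, with no overlap, and rose by 0.84 ± 0.20 on the log2 scale (SE, limma adjusted p = 0.00219). Among libraries with the title ending it was 0.48 and not called (limma adjusted p = 0.0769). CD82 at -0.99 (limma adjusted p = 0.00475) and CD9 at -0.48 (limma adjusted p = 0.0251) fell. The call of CD82 was lost without the title ending, at -0.65 (limma adjusted p = 0.222). That of CD9 was lost with the ending, at -0.15 (limma adjusted p = 0.524), with the ending as a covariate (limma adjusted p = 0.0517) and without NaCl replicate 1 (limma adjusted p = 0.0502). CD200, the ligand of an inhibitory receptor of myeloid cells, was called at 0.67 with a limma adjusted p of 0.0496, but the call held in 4 of the 14 fits that left out 1 library, and neither with edgeR nor with DESeq2. Its estimate was -0.15 in the libraries without the title ending, and its adjusted p in the authors' deposited table was 0.0965. CD164 at 0.15 was not called, and CD109 stayed under the filter. Of the 2 genes that only carry a CD-like symbol, CD2AP, an adaptor that binds CD2 inside the cell, was not called at 0.39 ± 0.31, and CD164L2 had no read in 7 of 7 NaCl libraries and at most 2 in any healthy library.

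Across all 5 groups, levels were compared as CPM scaled by TMM, computed from the recovered reads, which puts the separately normalized tables on 1 scale. These are descriptions, with no test. The median CD300LG level was 11.9 with ceftaroline plus MSC, 4.04 with ceftaroline, 4.23 with MSC, 4.61 with NaCl and 103 in healthy lung. The median CD36 level was 89.0 with ceftaroline plus MSC, 71.0 with ceftaroline, 66.7 with MSC, 59.7 with NaCl and 487 in healthy lung. Both genes were therefore low in the median library of every pneumonia group, whatever the treatment.

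The median CD44 level was 178 with ceftaroline plus MSC, 286 with ceftaroline, 286 with MSC, 383 with NaCl and 57.8 in healthy lung. The median CD84 level followed another order, with 39.4 with ceftaroline plus MSC, 36.8 with ceftaroline, 50.9 with MSC, 15.7 with NaCl and 15.3 in healthy lung. In CD84, then, the NaCl and healthy medians lay close together and the medians of the 3 treated groups were higher. CD247 had medians of 17.0 with ceftaroline plus MSC, 17.5 with ceftaroline, 12.3 with MSC, 15.9 with NaCl and 62.1 in healthy lung.

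**Figure D4:**
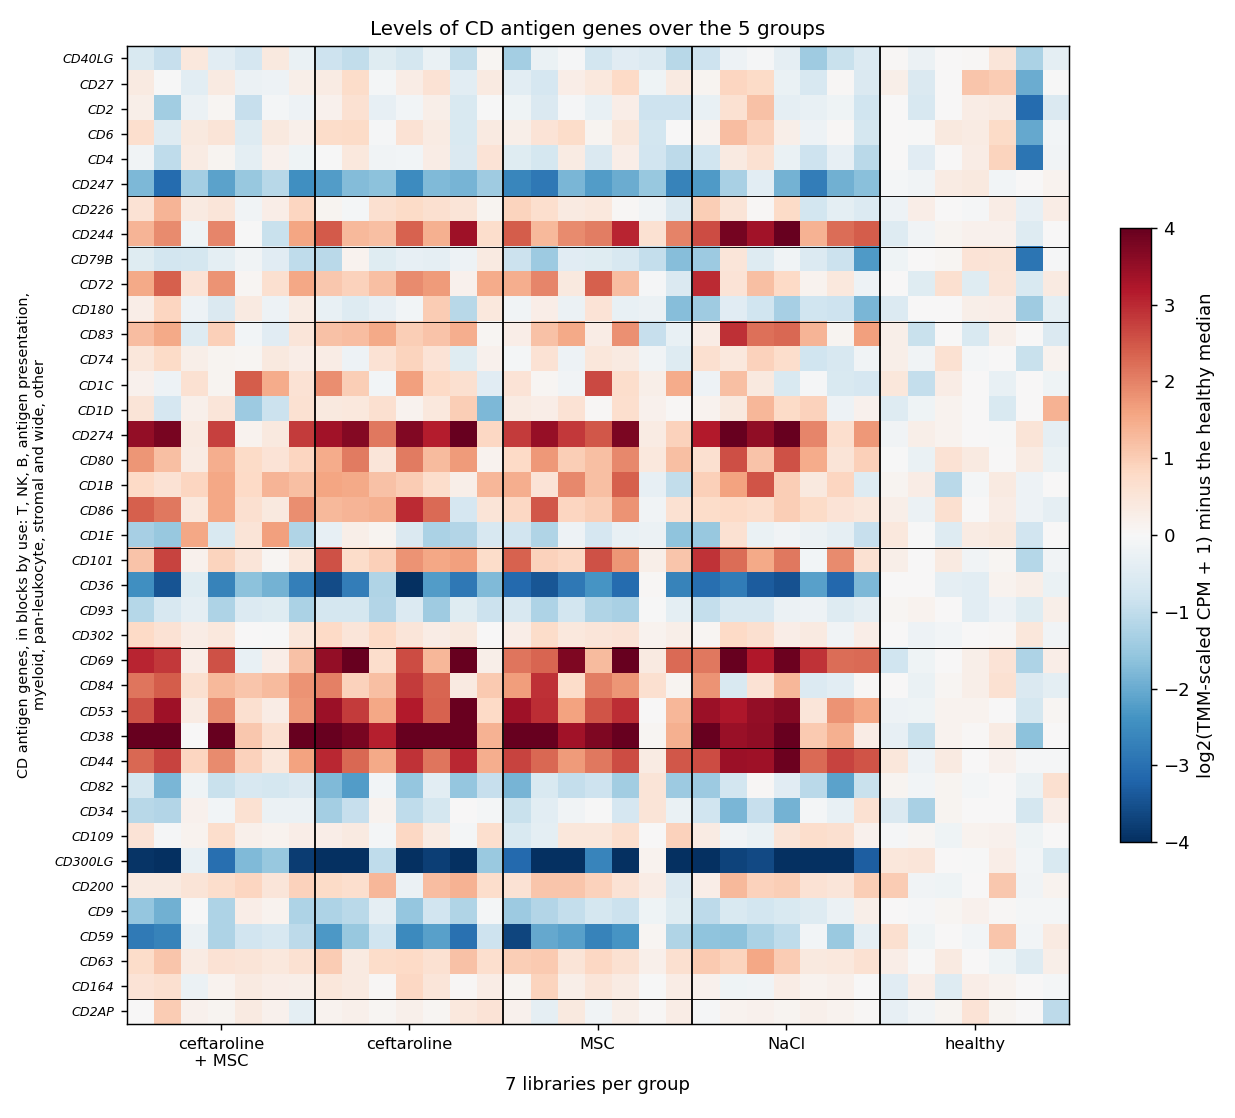
Level of 39 CD genes in each of the 35 libraries as log2(TMM-scaled CPM + 1) minus the healthy median of the gene, with colours capped at 4 in either direction and genes in blocks by use. With replicates 1 to 7 from left to right, MSC replicate 6 and ceftaroline plus MSC replicate 3 are paler than the rest of their groups, and healthy replicate 6 is blue in most T and B cell genes.

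The plot of levels over the 5 groups also shows libraries that differ from their own group. For the 10 genes in which the NaCl and healthy groups did not overlap in normalized reads, compared here as TMM-scaled CPM, MSC replicate 6 lay inside the healthy range in 8, ceftaroline plus MSC replicate 3 in 6, replicate 5 of the same group in 3 and its replicate 6 in 2. Ceftaroline replicates 2 and 7 each lay inside it in 1, as did NaCl replicate 7 through CD38, and the remaining pneumonia libraries in none. For the NaCl libraries these counts follow from how the 10 genes were chosen, and CD38 entered only through the change of scale. CD300LG, for example, reached 114 TMM-scaled CPM in MSC replicate 6 and 84.0 in ceftaroline plus MSC replicate 3, inside the healthy range of 67.4 to 143. These libraries were kept with the groups their labels give, and leaving out either of the first 2 added no call to the comparisons below.

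MSC were compared with NaCl in pneumonia to see which genes the cells moved. None of 39 tested CD genes was called (background 0% of 9446 genes), and none had groups that did not overlap (background 0.265%). At an unadjusted p under 0.05 there were 4 CD genes (background 17.7%), which were CD44, CD180, CD84 and CD244. edgeR on the recovered reads also called no CD gene (background 0 of 9446 genes), and neither did DESeq2 (background 335 of 9446 genes). In the authors' deposited table none had an adjusted p under 0.05 (background 3.33%).

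CD44 had 685, 2724 and 3543 normalized reads in the lowest, median and highest MSC library, against 2703, 3632 and 8499 with NaCl. The MSC libraries reached lower, most of all MSC replicate 6, and the estimate was -0.97 ± 0.36 (SE, limma adjusted p = 0.206), or -0.68 without that library. CD84 had 157, 474 and 1168 normalized reads with MSC against 91.1, 150.1 and 527 with NaCl, an estimate of 1.13 ± 0.49 (SE, limma adjusted p = 0.250). CD180 had 17.1, 64.6 and 116 with MSC against 15.1, 39.8 and 53.9 with NaCl, an estimate of 0.94 ± 0.38 (SE, limma adjusted p = 0.230).

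In CD84 and CD180, 6 of 7 MSC libraries were above the NaCl mean, yet the groups overlapped in both. CD244 had an estimate of -1.06 ± 0.47, CD1C one of 0.88 ± 0.42 and CD59 one of -1.07 ± 0.51 on the log2 scale. Within the libraries without the title ending, CD44 was at -1.08, CD84 at 1.07, CD180 at 1.19, CD244 at -1.49, CD1C at 0.57 and CD59 at -1.38. Within the 2 MSC and 3 NaCl libraries with it they were at -1.11, 0.72, 0.19, -0.77, 1.33 and 0.09 in the same order of genes, so CD59 had no negative estimate there. None of these values passed the test.

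Ceftaroline was compared with NaCl in the same way. None of 39 tested CD genes was called (background 0% of 9614 genes), and no groups stood apart (background 0.385%), with 5 genes at an unadjusted p under 0.05 (background 18.3%). CD180 had 37.3, 74.9 and 201 normalized reads in the lowest, median and highest ceftaroline library, against 18.7, 49.4 and 66.4 with NaCl. In 6 of 7 ceftaroline libraries it was above the NaCl mean, with an estimate of 1.08 ± 0.35 (SE, limma adjusted p = 0.162). It was the single CD gene with an adjusted p under 0.05 in the authors' deposited table, at 0.0408 (background 4.69%). DESeq2 on the recovered reads also called it (background 5.4%), while edgeR called no CD gene (background 0 of 9614 genes).

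All 3 B cell genes had an estimate above 0 with ceftaroline, from 0.45 to 1.08, none of them called. CD84 had 234, 424 and 1301 normalized reads with ceftaroline against 112, 186 and 654 with NaCl, an estimate of 1.23 ± 0.46 (SE, limma adjusted p = 0.191). CD244 had an estimate of -1.14 ± 0.50, CD59 one of -0.91 ± 0.40, CD1C one of 0.83 ± 0.38 and CD93 one of -0.37 ± 0.17. No ceftaroline library carries the title ending. Against the 4 NaCl libraries without it, CD180 was at 0.99, CD84 at 0.75, CD244 at -1.83, CD59 at -0.58, CD1C at 0.56 and CD93 at -0.25. The MSC and the ceftaroline comparison share the same 7 NaCl libraries, so the like values of CD180, CD84, CD244, CD59 and CD1C in both are not independent of each other.

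**Figure D5:**
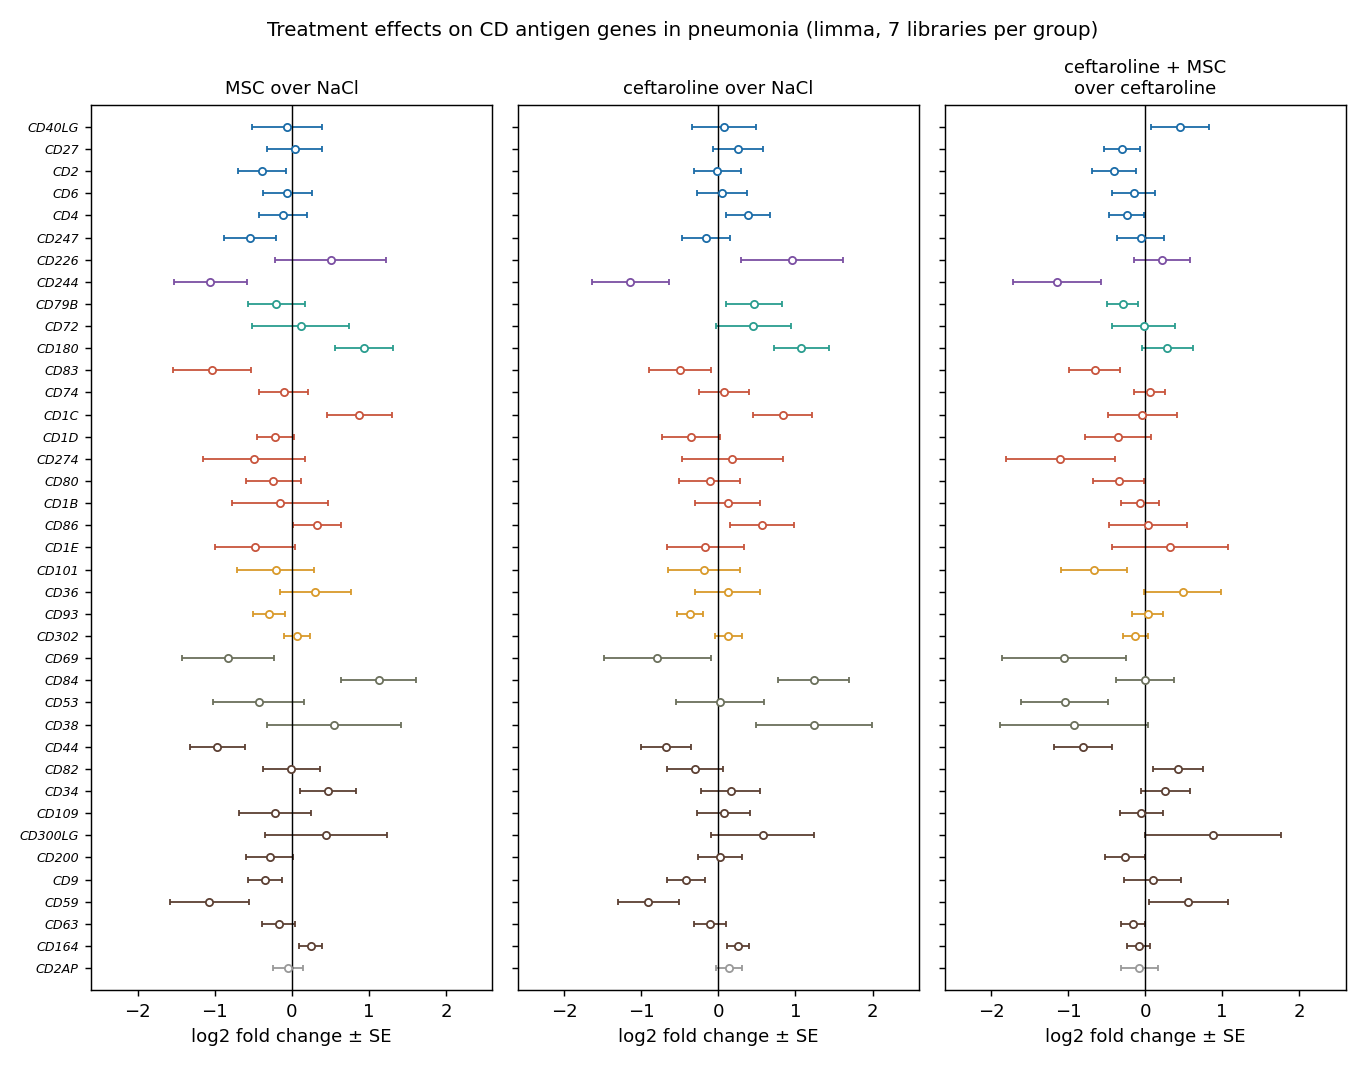
Estimated log2 fold change with bars of 1 standard error for 39 CD genes in 3 comparisons within pneumonia, 7 libraries per group, in colours by use as in the plot of fold changes against healthy lung. All points are open because no gene passed the test in any of the 3 comparisons.

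The plot of treatment effects shows estimates on both sides of 0, many no larger than their standard error. Ceftaroline plus MSC was compared with ceftaroline alone, which uses none of the NaCl or healthy libraries. None of 39 tested CD genes was called (background 0.0403%, which is 4 of 9924 genes), none stood apart (background 0.302%), and 1, CD44, had an unadjusted p under 0.05 (background 11.5%). edgeR on the recovered reads called no CD gene either (background 11 of 9924 genes), nor did DESeq2 (background 99 of 9924 genes). CD44 had 1240, 2704 and 5818 normalized reads with ceftaroline plus MSC against 2462, 4455 and 7553 with ceftaroline, an estimate of -0.80 ± 0.37 (SE, limma adjusted p = 0.432). In 6 of 7 libraries with both treatments it was below the mean of ceftaroline alone.

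CD244 had 31.9, 207 and 322 normalized reads with ceftaroline plus MSC against 128, 215 and 935 with ceftaroline, an estimate of -1.14 ± 0.57 (SE, limma adjusted p = 0.437). CD274 had 484, 2974 and 6243 with both against 787, 4644 and 11085 with ceftaroline, an estimate of -1.10 ± 0.71. CD53 had 4167, 11086 and 35431 with both against 5852, 23525 and 53819 with ceftaroline, an estimate of -1.04 ± 0.56. All of these groups overlapped over most of their range. CD83 had an estimate of -0.65 ± 0.33 and CD101 one of -0.66 ± 0.43.

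Of the 13 CD genes that were higher in NaCl pneumonia than in healthy lung, 12 (92.3%) had an estimate below 0 when MSC were added to ceftaroline, all but CD86, and the count was 11 to 13 when 1 library was left out. Of the 7 that were lower, 6 (85.7%) had an estimate above 0, all but CD247, with 5 to 7 when 1 library was left out. The same held for genes at large, with 90.3% of 2834 raised genes and 90.8% of 2891 lowered genes, so these shares say nothing particular about CD genes.

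The effect of MSC given with ceftaroline was set against the effect of MSC given alone. No CD gene differed at an adjusted p under 0.05 (background 0.265% of 9417 genes), and 1 of 39 had an unadjusted p under 0.05 (background 6.45%). edgeR estimates gave no call of a CD gene either (background 2 of 9417 genes), nor did DESeq2 estimates (background 44 of 9417 genes). The 1 gene was CD59, with an MSC effect of 0.56 ± 0.51 in the presence of ceftaroline and -1.07 ± 0.51 without it, a difference of 1.63 ± 0.72 (SE) on the log2 scale (unadjusted p = 0.0237, adjusted p = 0.674, normal approximation to the limma estimates over all genes). CD84 followed, with a difference of -1.13 ± 0.61 (SE, adjusted p = 0.819).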

How the data were processed

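The authors deposited 4 tables, 1 per comparison, each with 14 libraries. Per the file headers, a library column holds a signal, namely the reads of a gene after division by the library's size factor. Beside it stand the authors' log2 fold change and standard error, a Wald statistic (a score) and p-values with adjusted p-values. Per the labels' protocols, the libraries were stranded and gave single reads of 75 bases, Cutadapt 1.15 trimmed them, bcl2fastq2 2.18.12 had split them by sample, and those over 10 bases were used. The submitters' processing notes name DESeq2 1.24.0, TopHat2 2.1.1 and featureCounts 1.5.2. As to the annotation and genome build, neither is given in the sources used here.

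Every deposited value was a whole multiple of 1 read (100.0% of values, tolerance 1e-06), which gave back the reads. The 21 columns that repeat a library of another table gave equal reads for all genes. Copies of 1 library would differ by a chi-square near 1 per degree of freedom, and within a group it was never below 37.2.

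limma 3.58.1 in R 4.3.3 was run per table on log2(value + 1) with an intensity trend. It tested, two-sided, the genes that reached 10 in 7 or more of 14 libraries, with Benjamini-Hochberg adjustment over all of them. For the change of the MSC effect by ceftaroline, the gap between both limma estimates was divided by its combined standard error. The 7 libraries per group limit the precision, and depth adds counting error only.

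Alternatives were edgeR 4.0.16 and DESeq2 1.42.0 on the recovered reads, other thresholds, pseudocounts, filters and scaling, each library left out, libraries split by title ending, and a replicate block. Named genes were, against healthy lung, the 4 tested genes of each class with the lowest p and a panel (CD3E, CD4, CD8A, CD79B, CD68, CD86, CD274, CD44, CD34), and, in the other comparisons, the called genes or the 6 with the lowest p. The remaining genes are given as estimates or reads, and 1 gene that the rule finds is not reported here. The CD genes, their classes and the marker lists were chosen with earlier results of these data known. RefSeq gene order (41 of 43 symbols found) was used for names and neighbours only.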

Additional observations from a re-analysis of the deposited data

Results flagged for a closer look

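In each group of 7 libraries, the highest and the lowest value of each named CD gene were set against the rest by Dixon's ratio, and 11 of the 90 groups looked at held such a value. For independent samples from a normal distribution, chance alone gives about 1 group in 20. The groups here share libraries over genes and tables and are not independent, so 11 of 90 cannot be judged against that share. No explanation was tested for any of the 11 values.

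Of the 11, 7 came from healthy replicate 6. It was low in CD40LG, at 4.01 normalized reads against 15.3 to 35.0 in the other healthy libraries, in CD2 at 3.01 against 57.8 to 120.1, in CD6 at 12.0 against 71.7 to 135, and in CD4 at 18.03 against 144 to 361. It was low as well in CD79B at 66.1 against 483 to 802 and in CD101 at 10.0 against 28.9 to 45.4. It was high in CD302, at 194 against 119 to 141. Of the marker lists, the sums of T, B and NK cell and macrophage genes of the same library were below the range of the other healthy libraries and that of fibroblast genes was above it, while those of neutrophil, endothelial, epithelial and complement regulator genes were inside it.

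MSC replicate 6 was low in CD44, at 685 normalized reads against 1812 to 3543 in the other MSC libraries. MSC replicate 7 was low in CD180, at 17.1 against 61.8 to 116. Ceftaroline replicate 7 was low in CD83, at 948 against 1777 to 2570 in the table shared with ceftaroline plus MSC. Ceftaroline plus MSC replicate 2 was high in CD101, at 436 against 58.2 to 136.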

How the results depend on the processing

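Against healthy lung, 14 to 23 CD genes were called over the alternatives, beside 38.2% to 66.6% of all genes tested, and 19 to 23 with 1 library left out (57.0% to 60.8% of all genes), where 23 came without healthy replicate 6. The count was 15 of 37 (40.5%, all genes 38.2%) without the title ending and 14 of 37 (37.8%, all genes 56.2%) with it. Of the 27 named genes, CD84, CD4 and CD34 changed sign, none of them called. CD4 was at -0.044 with upper-quartile scaling, -0.20 with edgeR, -0.15 with DESeq2, -0.45 without the title ending, -0.021 with it, -0.20 with the ending as a covariate, -0.053 without the NaCl library whose sample name holds S00, and -0.43 to 0.28 with 1 library left out. With the title ending CD84 was at -0.11 and CD34 at 0.44, and for MSC against NaCl CD59 was at 0.091. The cause of these changes was not tested. S00 stands in the sample names of all 7 healthy libraries, so that mark and health cannot be told apart. Upper-quartile scaling moved the median of all genes against healthy lung to -0.11, from which changes then count. With DESeq2, ceftaroline against NaCl gave 1 called CD gene, CD180 (background 519 of 9614 genes). All other alternatives of the 3 treatment comparisons and of the difference gave 0 CD genes. Over all genes, the most that any of these called was 335 of 9446 for MSC against NaCl (DESeq2). For ceftaroline against NaCl it was 189 of 9614 (without NaCl replicate 1). It was 99 of 9924 for ceftaroline plus MSC against ceftaroline (DESeq2) and 88 of 9417 for the difference (without the title ending). A replicate block by title number gave 0 called in the 3 treatment comparisons, among CD genes and among all genes tested. Same-numbered deviations correlated at -0.39 to 0.48. The libraries that correlated best with their own number were 3 of 6 (MSC against NaCl), 3 of 8 (ceftaroline against NaCl) and 2 of 14 (ceftaroline plus MSC against ceftaroline). With so few pairs, these values cannot settle whether the numbers pair the samples. Against healthy lung no block was fitted, since titles of only a letter and a number shared none there.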

Other observations

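Several CD genes lie close together in the RefSeq gene order, and their estimates against healthy lung can be set side by side. CD244 and CD84, with 4 genes between them, had log2 fold changes of 3.27 and 0.39. CD101 and CD2, with 2 genes between them, had 1.97 and 0.73, where CD2 was at 0.10 without healthy replicate 6. CD27 and CD9, with 4 between them, had 0.28 and -0.48, where CD27 was at -0.28 without that library. Within the CD1 cluster, CD1B had 1.26 and its neighbour CD1E, with 1 gene between them, had -0.57.

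Against healthy lung, the genes under the filter on low values can be given as reads only. CD226 had a median of 17 reads with ceftaroline plus MSC, 16 with ceftaroline, 13 with MSC, 4 with NaCl and 6 in healthy lung, at depths that were highest with ceftaroline. It passed the filter in the treatment comparisons, where it was not called. Its log2 fold change was 0.51 for MSC over NaCl, 0.96 for ceftaroline over NaCl and 0.22 for ceftaroline plus MSC over ceftaroline. CD96 had medians of 5, 8, 5, 3 and 8 reads in the same order of groups. CD28 had at most 9 reads in any library.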
